A study of Mus musculus with 10 samples.

Results

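The 10 genes described here are transcriptional targets of p53 that act in cell cycle arrest, apoptosis and feedback on p53: Cdkn1a, Mdm2, Trp53inp1, Ccng1, Bax, Bbc3, Eda2r, Zmat3, Phlda3 and Sesn1. They were chosen by symbol, and all 10 were found among the 27179 Entrez genes of the counts table. All 10 also passed the filter on low counts, which left 15301 genes for testing. Whole-lung polyadenylated RNA was sequenced from 2 groups of mice. EpithelialKO mice (5 animals) carried Cre at one Shh allele (Shh Cre/+) together with homozygous floxed IRE1α (IRE1α fl/fl). Flox mice (5 animals) carried the same homozygous floxed alleles with an unmodified Shh locus (Shh +/+), so no Cre was present and the floxed alleles were common to both groups. The comparison asks how the lung differs when its epithelium lacks IRE1α, the endoplasmic reticulum stress sensor encoded by Ern1. EpithelialKO mice alone carried Cre and a modified Shh allele. Differences due to these and to loss of IRE1α cannot be told apart with these 2 groups. In the lung Shh is transcribed in the epithelium, whereas every cell type contributed RNA to these libraries. The labels give no age, sex, litter or batch. Counts of Xist and of Y-linked genes, given with Eda2r below, marked Flox mice 4 and 6 as female and all other mice as male. Sex was thus unbalanced in every comparison of the 2 groups.

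p53 is a transcription factor that is held low in unstressed cells by Mdm2, a ubiquitin ligase that p53 itself induces. DNA damage and other stresses stabilise p53, which then binds sites near its target genes and raises their transcription. Its targets stop the cell cycle, promote apoptosis or limit growth signalling, and most of them are also transcribed at a basal level without p53. Prolonged stress in the endoplasmic reticulum can reach some of the same genes by other routes, for example Bbc3 through the factor CHOP.

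A p53 site consists of a pair of decamers, each with a C and a G at fixed places. RefSeq (GRCm38.p6) listed windows of 300 bases, from 250 before to 50 after a listed transcription start, for 8 of the 10 genes, with 12 windows in all. Trp53inp1 and Zmat3 had no window. The p53 consensus was searched as adjoining decamers with both C and G letters of each decamer required and at most 3 mismatches elsewhere. The consensus reads the same on both strands. Matches lay in windows of 4 genes, which are shown so that the letters of the best match near each start can be read. The 20 bases of each match are in capitals, with 20 bases on either side.
Cdkn1a: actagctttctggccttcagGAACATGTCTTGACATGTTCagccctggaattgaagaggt
Ccng1: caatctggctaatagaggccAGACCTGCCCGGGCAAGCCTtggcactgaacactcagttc
Bbc3: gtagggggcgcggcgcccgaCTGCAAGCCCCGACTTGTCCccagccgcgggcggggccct
Sesn1: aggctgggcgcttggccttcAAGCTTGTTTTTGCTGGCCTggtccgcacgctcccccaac
The Cdkn1a stretch is chr17:29090908-29090967 on the plus strand, and its match begins at position -51 from a listed start. The Ccng1 stretch is chr11:40755442-40755501 on the minus strand, with the match at position -195. The Bbc3 stretch is chr7:16309466-16309525 on the plus strand, with the match at position -97 from a start that lies inside the annotated gene. The Sesn1 stretch is chr10:41887246-41887305 on the plus strand, with the match at position -173 from an internal start of that gene.
The Cdkn1a and Ccng1 matches had 1 mismatch each, a limit met by 22 of all 32851 windows (0.067%), and the Bbc3 and Sesn1 matches had 3, a limit met by 1.38% of windows. These matches are descriptions of sequence, and the data hold no measurement of p53 binding.

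None of the 10 genes passed the test for a difference between EpithelialKO and Flox lungs. In the quasi-likelihood test of edgeR fitted to all 15301 genes, 0 of the 10 passed a Benjamini-Hochberg adjusted p of 0.05, against 0.0392% of all genes tested (6 genes). At an unadjusted p under 0.05 the count was again 0 of 10, against 12.4% of all genes. The DESeq2 Wald test, which called 1.82% of all genes, and limma-voom with sample weights also called 0 of the members they gave an adjusted p. DESeq2 gave none for Eda2r, so 9 members could be called there. The groups overlapped in all 10 genes, while they did not overlap in 3.12% of the genes tested. Log2 fold changes of EpithelialKO over Flox were positive for 4 genes and negative for 6, beside 49.9% negative over all genes tested. Their median was -0.05, and that of all genes tested was 0.00.

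Levels are given as CPM, the counts of a gene relative to the library's total after TMM scaling.

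**Figure D1:**
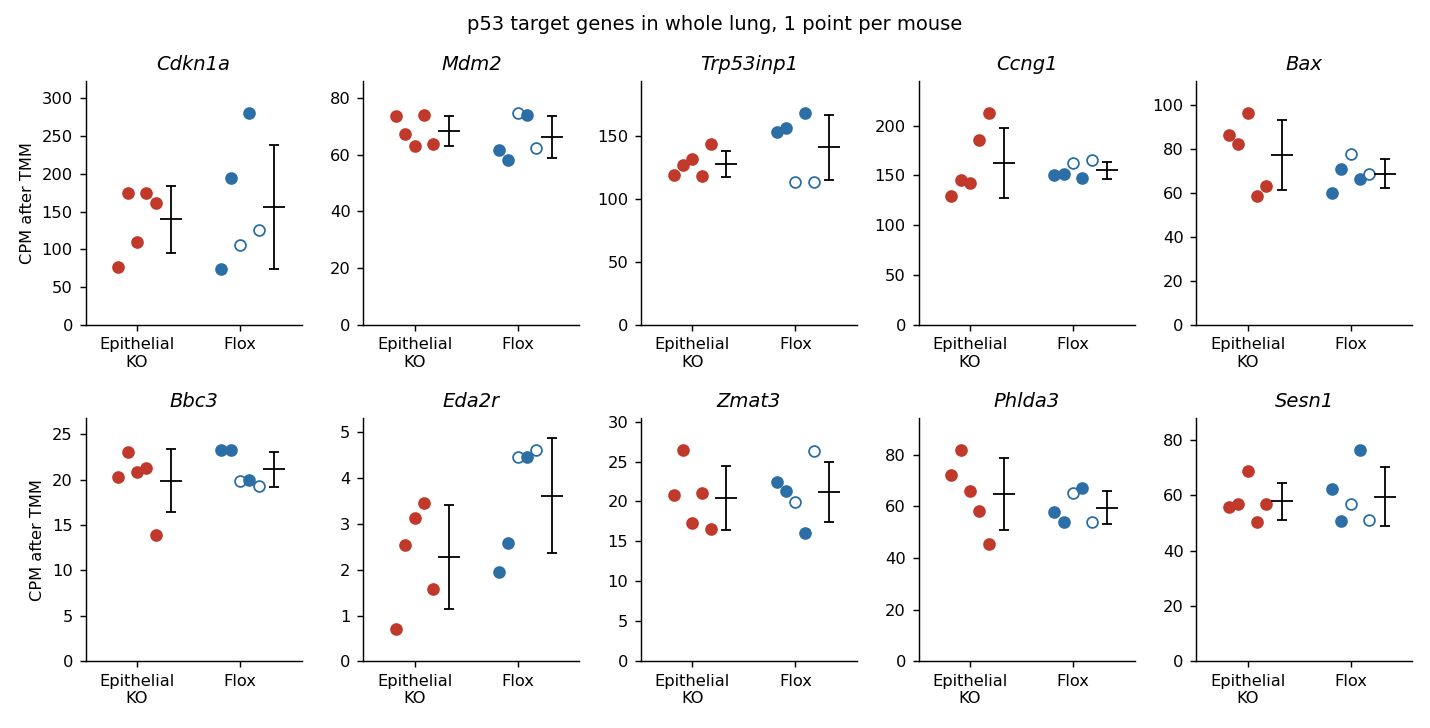
CPM of each p53 target gene, with 1 point per mouse in order of mouse number, EpithelialKO in red and Flox in blue, and the mean ± SD (n = 5) beside each group; open points are Flox mice 4 and 6. The groups overlap in all 10 panels, and Cdkn1a and Eda2r have the widest spread.

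Among the genes of cell cycle arrest, Cdkn1a encodes p21, the inhibitor of cyclin-dependent kinases through which p53 stops the cycle in G1 phase. Cdkn1a (Entrez 12575, GRCm38 chromosome 17, 29090979 to 29100722) stood at 76.1, 175, 110, 175 and 162 CPM in EpithelialKO mice 17, 18, 20, 21 and 22, against 73.9, 195, 106, 281 and 125 CPM in Flox mice 2, 3, 4, 5 and 6. Flox mouse 5 was the highest of all mice and Flox mouse 2 the lowest, so the EpithelialKO values lay inside the Flox range. The mean was 140 ± 44.7 CPM in EpithelialKO and 156 ± 82.7 CPM in Flox (SD, n = 5 each). The fitted log2 difference was -0.16 ± 0.39 (SE; edgeR adjusted p = 0.914). The 95% interval ran from -1.04 to 0.72, which in linear terms is 0.488 to 1.65 of the Flox level. The sign reversed when Flox mouse 5 was left out, which gave a log2 fold change of 0.16. Leaving out Flox mouse 2 kept the sign and gave -0.34. Cdkn1a shares 273 exonic bases with an unconfirmed model on the opposite strand, AC167363.2, and the strand setting of the counting is not given in the sources used here.

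Ccng1 encodes cyclin G1, a p53-induced cyclin that recruits a phosphatase to Mdm2. Ccng1 (Entrez 12450, chromosome 11, 40748552 to 40755309) stood at 129, 145, 142, 186 and 213 CPM in EpithelialKO mice 17, 18, 20, 21 and 22, against 150, 151, 163, 147 and 166 CPM in Flox mice 2 to 6. The EpithelialKO values lay on both sides of Flox, 3 below and 2 above all Flox mice. The means were 163 ± 35.1 CPM in EpithelialKO and 155 ± 8.35 CPM in Flox (SD, n = 5 each; log2 fold change 0.07 ± 0.12, SE; edgeR adjusted p = 0.867). Zmat3, an RNA-binding zinc finger protein that p53 uses to restrain growth (Entrez 22401, chromosome 3, 32334792 to 32365665), averaged 20.4 ± 3.97 CPM in EpithelialKO and 21.2 ± 3.72 CPM in Flox. Its log2 fold change was -0.05 ± 0.16 (SE, edgeR adjusted p = 0.934). Sesn1, a sestrin that lowers mTORC1 signalling (Entrez 140742, chromosome 10, 41810574 to 41908436), averaged 57.8 ± 6.79 CPM in EpithelialKO and 59.5 ± 10.7 CPM in Flox, and its log2 fold change was -0.04 ± 0.12 (SE, edgeR adjusted p = 0.934).

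Bax and Bbc3 act in the mitochondrial pathway of apoptosis, in which Bbc3 (PUMA) frees or activates Bax and Bax permeabilises the outer membrane. Bax (Entrez 12028, chromosome 7, 45461695 to 45466903) stood at 86.5, 82.4, 96.5, 58.8 and 63.0 CPM in EpithelialKO mice 17, 18, 20, 21 and 22, against 60.2, 70.9, 77.8, 66.4 and 68.8 CPM in Flox mice 2 to 6. EpithelialKO mice 17, 18 and 20 were above all Flox mice, mouse 21 was below them and mouse 22 was within their range. The means of 77.4 ± 16 CPM in EpithelialKO and 68.8 ± 6.44 CPM in Flox (SD, n = 5 each) corresponded to a fitted log2 difference of 0.17 ± 0.13 (SE, edgeR adjusted p = 0.63), with a 95% interval from -0.10 to 0.44, and leaving out EpithelialKO mouse 20 gave 0.08. Bax shares 192 exonic bases with Gm45808 on the same strand, and how the authors' counting treated such reads is not given in the sources used here. Bbc3 (Entrez 170770, chromosome 7, 16308398 to 16318334) averaged 19.8 ± 3.47 CPM in EpithelialKO and 21.1 ± 1.96 CPM in Flox (log2 fold change -0.09 ± 0.14, SE; edgeR adjusted p = 0.852). EpithelialKO mouse 22, at 13.9 CPM, was the only mouse of either group below 19 CPM for Bbc3, and the log2 fold change was 0.02 without it.

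Eda2r encodes the receptor for ectodysplasin A2, a member of the tumour necrosis factor receptor family. Eda2r (Entrez 245527, chromosome X, 97333837 to 97377234) was the member with the fewest reads, 12 to 91 counts per mouse. It stood at 0.715, 2.53, 3.12, 3.46 and 1.58 CPM in EpithelialKO mice 17, 18, 20, 21 and 22, against 1.95, 2.59, 4.45, 4.46 and 4.62 CPM in Flox mice 2 to 6. All 5 EpithelialKO mice lay below the Flox mean, 2 of them below every Flox mouse, and the other 3 lay within the Flox range. With means of 2.28 ± 1.13 CPM in EpithelialKO and 3.62 ± 1.25 CPM in Flox (SD, n = 5 each), its log2 fold change of -0.66 ± 0.40 (SE) was the furthest from 0 of the 10, and the edgeR adjusted p was 0.533. Leaving out EpithelialKO mouse 17 gave -0.43. The interval from -1.51 to 0.19 covers 0.35 to 1.14 of the Flox level. Of the Flox mice, 4 and 6 had 3949 and 4866 counts of Xist, the RNA of the inactive X chromosome, and 0 counts of 4 Y-linked genes, whereas Xist counts were between 2 and 61 and Y-linked counts between 2462 and 3575 in the other 8 mice. By these counts Flox mice 4 and 6 were female and the other 8 mice, including all 5 EpithelialKO mice, were male. Sex was therefore unbalanced between the groups, and the fit had no term for it. Without Flox mice 4 and 6 the Eda2r log2 fold change was -0.39 ± 0.50 (SE, edgeR adjusted p = 0.913).

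Trp53inp1 encodes a stress-induced nuclear protein of apoptosis and autophagy that enhances p53 phosphorylation. Trp53inp1 (Entrez 60599, chromosome 4, 11156441 to 11174379) stood at 119, 127, 131, 118 and 143 CPM in EpithelialKO mice 17, 18, 20, 21 and 22, against 153, 156, 113, 168 and 113 CPM in Flox mice 2 to 6. Flox mice 4 and 6 were the lowest of all mice and Flox mice 2, 3 and 5 the highest, with the EpithelialKO mice between them. The means over all mice were 128 ± 9.96 CPM in EpithelialKO and 141 ± 25.9 CPM in Flox (SD, n = 5 each; log2 fold change -0.14 ± 0.12, SE; edgeR adjusted p = 0.661). Without Flox mice 4 and 6 the means were 126 ± 10.1 CPM in EpithelialKO (SD, n = 5) and 157 ± 7.76 CPM in Flox (SD, n = 3), and the groups did not overlap, as in 5.97% of the 15722 genes tested in that fit. Its log2 fold change was then -0.32 ± 0.10 (SE), with an unadjusted p of 0.00812 and an edgeR adjusted p of 0.515, so it did not pass the threshold. In that fit 7.68% of all genes, and of the 10 members Trp53inp1 alone, had an unadjusted p under 0.05.

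**Figure D2:**
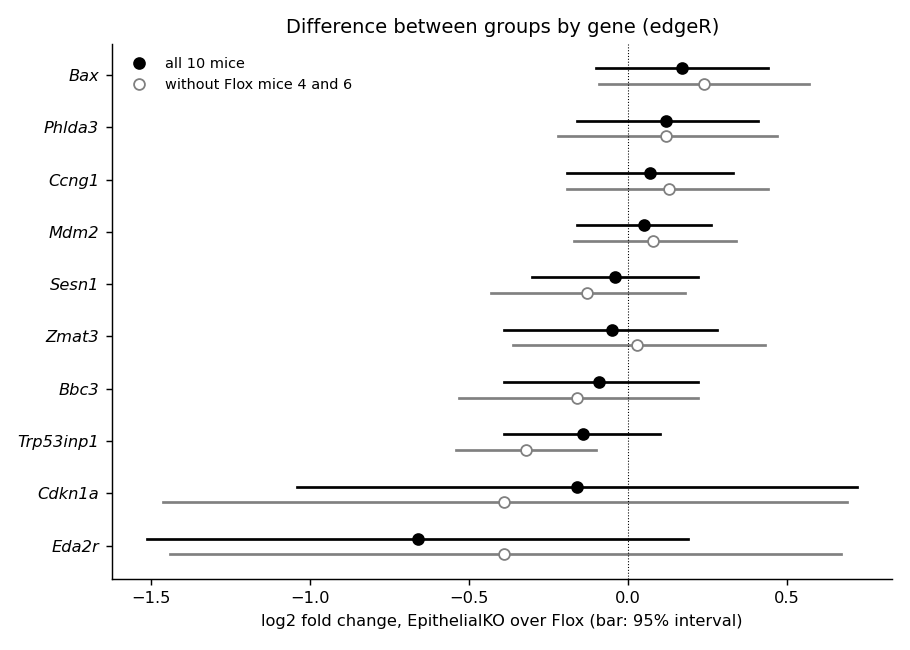
Log2 fold change of EpithelialKO over Flox with its 95% interval from edgeR for each gene, with all 10 mice (filled) and without Flox mice 4 and 6 (open). All intervals include 0 except that of Trp53inp1 without those mice (-0.54 to -0.10), which is not adjusted for the number of genes tested.

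Phlda3, a pleckstrin homology domain protein that keeps Akt from the membrane, and Mdm2 complete the set. Phlda3 (Entrez 27280, chromosome 1, 135766085 to 135769134) stood at 72.0, 82.0, 66.1, 58.3 and 45.6 CPM in EpithelialKO mice 17, 18, 20, 21 and 22, against 57.7, 53.9, 65.1, 67.1 and 54.0 CPM in Flox mice 2 to 6. EpithelialKO mice 17 and 18 were above all Flox mice and mouse 22 below them. Its log2 fold change was 0.12 ± 0.13 (SE, edgeR adjusted p = 0.764), and 0.02 without EpithelialKO mouse 18. Mdm2 (Entrez 17246, chromosome 10, 117688875 to 117710758) stood at 73.6, 67.4, 63.0, 73.8 and 63.7 CPM in EpithelialKO mice, against 61.7, 58.2, 74.7, 73.8 and 62.4 CPM in Flox mice 2 to 6. These 10 values spanned 58.2 to 74.7 CPM, the narrowest relative range of the 10 genes. The Mdm2 means were 68.3 ± 5.21 CPM in EpithelialKO and 66.1 ± 7.58 CPM in Flox (SD, n = 5 each; log2 fold change 0.05 ± 0.10, SE; edgeR adjusted p = 0.896).

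The 95% intervals, taken 1 gene at a time, bound the size of each difference. For Mdm2 the interval ran from 0.893 to 1.19 of the Flox level, for Ccng1 from 0.878 to 1.25, for Sesn1 from 0.812 to 1.16 and for Trp53inp1 from 0.764 to 1.07. Bax, Phlda3, Bbc3 and Zmat3 had bounds between 0.761 and 1.36. A doubling or a halving of any of these 8 genes in whole lung lay outside its interval. For Cdkn1a and Eda2r a halving lay inside the interval and a doubling outside it. In whole lung, fewer cells of a type and less RNA per cell cannot be told apart, and a change limited to a minor cell type would be diluted.

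The 10 genes differed in how much they varied between mice of the same group. The SD of log2 CPM within groups was 0.65 for Cdkn1a and 0.72 for Eda2r, at percentiles 87 and 89.4 of all genes tested, whose median SD was 0.26. For Mdm2 it was 0.14, at percentile 13.2. The other 7 genes had SDs from 0.21 to 0.26, near the median gene. The highest Cdkn1a value was 3.8 times the lowest, whereas for Mdm2 this ratio was 1.28.

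No pattern shared by the members across mice was detected. Of the 45 pairs of members, 23 had a positive and 22 a negative Pearson correlation of log2 CPM over the 10 mice, with a median of 0.00 and a range from -0.75 to 0.63. By two-sided permutation tests with 100000 permutations, 3 pairs had an unadjusted p under 0.05 and 0 passed after adjustment over the 45 pairs (lowest adjusted p = 0.524 for Pearson's r and 0.456 for Spearman's rho). The pair furthest from 0 was Ccng1 and Phlda3, with r = -0.75 (permutation p = 0.0116) and rho = -0.78 (permutation p = 0.0101), and r was -0.57 without the 2 mice furthest from the Ccng1 median. Ccng1 was highest in EpithelialKO mice 21 and 22, which had the lowest Bax and Phlda3 values of the EpithelialKO mice. The summed level of 8 markers of AT2 cells, the surfactant-producing cells of the alveoli, was 59900 and 61000 CPM in those mice, against 49300 to 50400 CPM in the other 3 EpithelialKO mice and 41100 to 49300 CPM in Flox mice. Most of that sum was Sftpc, at 42600 and 44700 CPM in mice 21 and 22, and not every marker followed it. In mouse 22 Sftpb, Abca3, Napsa and Slc34a2 were below their values in EpithelialKO mouse 18, and Sftpc, Sftpa1, Sftpd and Lamp3 were above. The summed level of 6 club cell markers was 34700 and 33500 CPM in EpithelialKO mice 21 and 22, against 46600 to 52900 CPM in the other 3 EpithelialKO mice and 21400 to 46500 CPM in Flox mice. That of the 12 immediate early genes was 923 and 981 CPM in mice 21 and 22, against 1210 to 1640 CPM in the other 3 EpithelialKO mice and 888 to 2100 CPM in Flox mice. Epithelial markers summed to 2410 and 2690 CPM in mice 21 and 22, against 1770 to 2160 CPM in the other 3 (Flox 1700 to 2120 CPM). Senescence-associated genes summed to 1320 and 1090 CPM, against 823 to 887 CPM (Flox 1050 to 1770 CPM). Atf4 with targets of ATF4 and CHOP summed to 496 and 482 CPM, against 519 to 542 CPM (Flox 380 to 553 CPM). Not every list set EpithelialKO mice 21 and 22 apart. Ciliated cell markers summed to 788 and 938 CPM in those mice, against 706 to 998 CPM in the other 3. Proliferation genes summed to 119 and 126 CPM, against 114 to 133 CPM. The AT1 marker sum did set them apart from the other 3, at 5250 and 6240 CPM against 4260 to 4920 CPM, but Flox mice, at 4540 to 5730 CPM, spanned the value of mouse 21. Not every AT1 marker followed the sum. Aqp5 stood at 296 and 269 CPM in mice 21 and 22, against 297 to 387 CPM in the other 3. In mouse 21 Hopx was below its values in EpithelialKO mice 17 and 18. The part of all these levels in the Ccng1, Bax and Phlda3 values was not tested. Cdkn1a and Mdm2, which share p53 as an inducer, had r = 0.07.

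**Figure D3:**
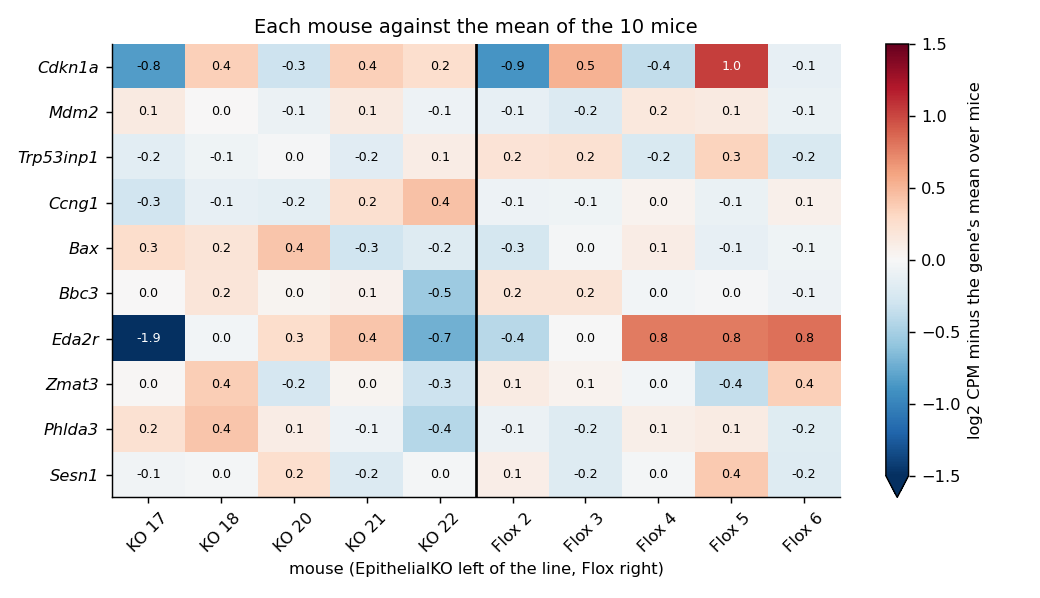
Log2 CPM of each gene in each mouse minus that gene's mean over the 10 mice, with EpithelialKO mice left of the line and Flox mice right of it; red is above and blue below the mean, and the scale stops at 1.5. No mouse is red or blue throughout, and the strongest colours are in the Cdkn1a and Eda2r rows.

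Flox mouse 5 had the highest summed level of the 10 genes, 921 CPM, to which Cdkn1a contributed 281 CPM. It was the highest mouse for 3 of the 10 genes and the lowest for 1. EpithelialKO mouse 18 was the highest for 2 genes and above the median of the mice for 7. The summed level of the 10 genes lay between 654 and 788 CPM in EpithelialKO mice and between 666 and 783 CPM in the other 4 Flox mice.

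Levels of different genes were compared as CPM per kilobase of transcript, with the median length of the GENCODE M21 transcripts linked to RefSeq. Over the 10 mice Cdkn1a (104 ± 44.6 CPM per kilobase, SD) and Bax (84.3 ± 14.3) were highest and overlapped each other. Ccng1 (45.3 ± 6.95) and Phlda3 (43.3 ± 7.28) came next and overlapped each other and the lower Cdkn1a values, which reached down to 52.2, but not Bax, which was at least 67.8. Trp53inp1 (24.8 ± 3.66), Mdm2 (21.7 ± 2.01) and Sesn1 (18.3 ± 2.66) overlapped in turn, followed by Bbc3 (11.3 ± 1.51), Zmat3 (2.67 ± 0.468) and Eda2r (0.62 ± 0.279), each below the range of the gene before it. With the longest transcript in place of the median, Cdkn1a stood at 77.3 and Sesn1 at 15.4 CPM per kilobase, and Cdkn1a was then below Bax. Which isoforms the lung used was not measured, so these levels carry that uncertainty.

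**Figure D4:**
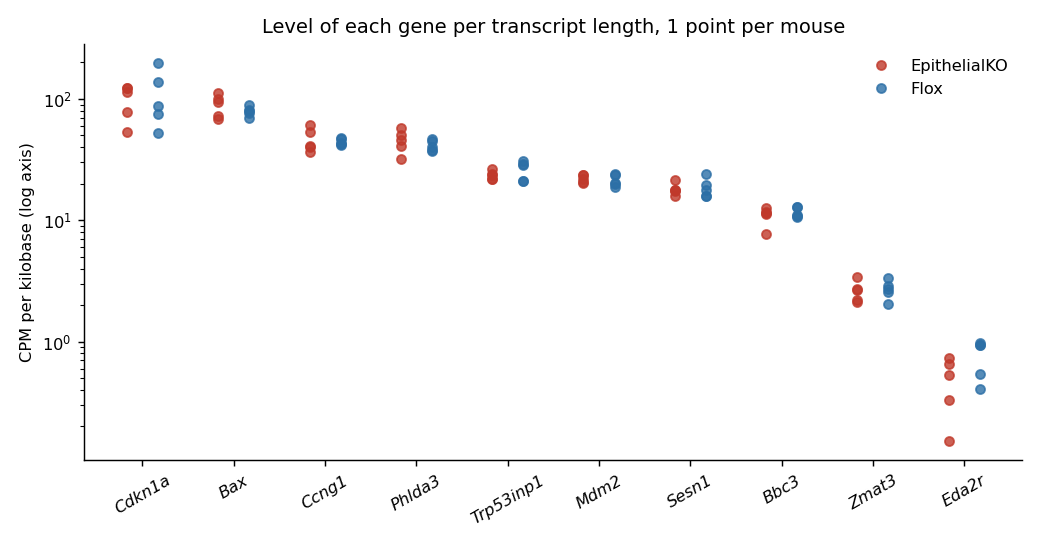
CPM per kilobase of transcript on a log axis for each gene, with 1 point per mouse, EpithelialKO in red and Flox in blue. Levels run from 0.15 to 0.973 for Eda2r up to 52.2 to 198 for Cdkn1a, and the colours overlap at every gene.

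No gene of the lists around p53 passed the threshold. Trp53 itself, which encodes p53, stood at 37.7 ± 5.19 CPM in EpithelialKO and 35.9 ± 3.56 CPM in Flox (SD, n = 5 each; log2 fold change 0.07 ± 0.12, SE; edgeR adjusted p = 0.861). Mdm4, the Mdm2 partner that inhibits p53, stood at 27.3 ± 5.49 CPM in EpithelialKO and 25.9 ± 4.93 CPM in Flox (log2 fold change 0.07 ± 0.16, SE; edgeR adjusted p = 0.899). Of 21 genes of the p53 family and its kinases, ligases and cofactors, 20 were tested, 0 passed in either direction, and the median log2 fold change was 0.07. The lowest p in that list belonged to the acetyltransferase Crebbp (-0.37 ± 0.18, SE), followed by the acetyltransferase Kat5 (0.14 ± 0.10), the p53-binding Trp53bp2 (0.27 ± 0.18) and the kinase Hipk2 (-0.48 ± 0.35).

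Of 35 other p53 targets, all were tested and 0 passed, with 14 positive and 21 negative fold changes and a median log2 fold change of -0.04. At an unadjusted p under 0.05 there were 3 higher and 2 lower, beside 5.87% higher and 6.52% lower over all genes. Perp, a desmosomal protein that p53 and p63 induce in epithelia, stood at 55.6 ± 11.4 CPM in EpithelialKO and 38.9 ± 4.03 CPM in Flox (SD, n = 5 each; log2 fold change 0.52 ± 0.13, SE; edgeR adjusted p = 0.138). Dcxr, a carbonyl reductase, stood at 150 ± 18.6 CPM in EpithelialKO and 110 ± 18.8 CPM in Flox (0.45 ± 0.12, SE; edgeR adjusted p = 0.153). Trp53i11 had a log2 fold change of -0.35 ± 0.13, and Pmaip1, which encodes the BH3-only protein NOXA, had -0.31 ± 0.13, neither past the threshold.

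No marker of the lung's cell types passed the threshold, and the signs of the fold changes differed between types. At an unadjusted edgeR p under 0.05, 8 of 8 endothelial, 4 of 8 fibroblast and 4 of 6 smooth muscle markers were lower. So were 3 of 12 leukocyte markers, beside 6.52% of all genes tested. At the same limit 5 of 10 epithelial, 5 of 8 AT2, 4 of 6 club and 3 of 7 ciliated cell markers were higher. The share of all genes tested was 5.87%. These marker counts come from the fit of all mice, which had no term for sex, and were not taken without Flox mice 4 and 6. Club cell sums were 25400 and 21400 CPM in those 2 mice, against 37600 to 46500 CPM in Flox mice 2, 3 and 5. AT2 sums did not split the Flox mice in this way, at 49300 and 44000 CPM against 41100 to 48900 CPM. No AT1, cardiomyocyte, adipocyte or erythroid marker met that limit. Of 10 epithelial markers 10 had positive fold changes, with sums of 1770 to 2690 CPM in EpithelialKO and 1700 to 2120 CPM in Flox. Not all of these mark epithelium in general, and Cldn18 alone stood at 754 to 1470 CPM over the mice. Fold changes were also positive for 8 of 8 AT2 markers, 6 of 6 club cell markers (33500 to 52900 CPM in EpithelialKO, 21400 to 46500 CPM in Flox) and 7 of 7 ciliated cell markers (706 to 998 CPM in EpithelialKO, 581 to 827 CPM in Flox), while 3 of 7 AT1 markers were positive (4260 to 6240 CPM in EpithelialKO, 4540 to 5730 CPM in Flox). Negative fold changes were found for 8 of 8 endothelial markers (2310 to 3010 CPM in EpithelialKO, 3070 to 4050 CPM in Flox), 7 of 8 fibroblast markers (865 to 989 CPM in EpithelialKO, 1020 to 1570 CPM in Flox), 6 of 6 smooth muscle markers (265 to 465 CPM in EpithelialKO, 355 to 461 CPM in Flox) and 11 of 12 leukocyte markers (500 to 785 CPM in EpithelialKO, 617 to 869 CPM in Flox). The endothelial and fibroblast sums did not overlap between groups, whereas the smooth muscle and leukocyte sums did. The fibroblast sums were highest in Flox mice 4 and 6, female by their counts, at 1390 and 1570 CPM. In Flox mice 2, 3 and 5 they were 1020 to 1080 CPM, nearer the EpithelialKO values. Endothelial sums were 3510 and 4050 CPM in Flox mice 4 and 6, against 3070 to 3810 CPM in Flox mice 2, 3 and 5. The part of sex in these sums was not tested. Of 6 cardiomyocyte markers 2 were positive and 4 negative, and all 5 tested adipocyte markers (median log2 fold change 0.58) and all 5 tested erythroid markers (median 0.32) were positive. Cardiomyocyte sums were 56.2 to 224 CPM in EpithelialKO and 77.9 to 207 CPM in Flox, adipocyte sums were 77.5 to 263 CPM in EpithelialKO and 58.7 to 292 CPM in Flox, and erythroid sums were 2190 to 5480 CPM in EpithelialKO and 1150 to 4860 CPM in Flox. No cell type list had a marker at 0 in a mouse other than the adipocyte list, and the part of cell composition in the p53 target values was not tested. Ern1 did not separate the groups, at 17.3 ± 6.52 CPM in EpithelialKO and 16.8 ± 5.28 CPM in Flox (SD, n = 5 each; edgeR log2 fold change 0.04), and counts over the whole gene in whole lung do not check the deletion.

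Of 13 paralogs, 8 had positive and 5 negative fold changes (median log2 fold change 0.09). Those with the lowest p were Tnfrsf19, a relative of Eda2r, at 21.7 ± 3.26 CPM in EpithelialKO and 32.4 ± 7.38 CPM in Flox (log2 fold change -0.58 ± 0.16, SE; edgeR adjusted p = 0.158), Trp53inp2 (-0.24 ± 0.09), the sestrin Sesn3 (-0.56 ± 0.23) and the Bax relative Bok (0.31 ± 0.22). Of 22 genes of the BCL2 family, apoptosome and caspases, 21 were tested, with 13 positive and 8 negative fold changes and a median of 0.07. Cycs, which encodes cytochrome c, stood at 85.7 ± 7.88 CPM in EpithelialKO and 68.8 ± 7.02 CPM in Flox (log2 fold change 0.32 ± 0.10, SE; edgeR adjusted p = 0.195). The survival gene Bcl2 stood at 20.7 ± 2.15 CPM in EpithelialKO and 27.0 ± 4.74 CPM in Flox (-0.39 ± 0.14, SE; edgeR adjusted p = 0.266). The effector caspase Casp6 had 0.24 ± 0.12 and the Bcl2 relative Bcl2l2 -0.22 ± 0.13.

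Downstream of p21, the 18 proliferation genes that are repressed when cells leave the cycle had a median log2 fold change of 0.05, 13 positive and 5 negative, and 0 passed. Ccne1, which encodes the G1 cyclin E1, had the lowest p, at 1.40 ± 0.683 CPM in EpithelialKO and 3.15 ± 1.01 CPM in Flox (log2 fold change -1.17 ± 0.40, SE; edgeR adjusted p = 0.243). Ccnb1 (0.36 ± 0.37), Top2a (0.18 ± 0.21) and Ccne2 (0.31 ± 0.50) followed. Of 11 senescence-associated genes 10 were tested and 0 passed, with 5 of either sign and a median of -0.01. Igfbp5 had -0.91 ± 0.51, Mmp3 0.28 ± 0.18, Glb1 -0.21 ± 0.14 and Cdkn2b, the inhibitor p15, 0.16 ± 0.15.

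**Figure D5:**
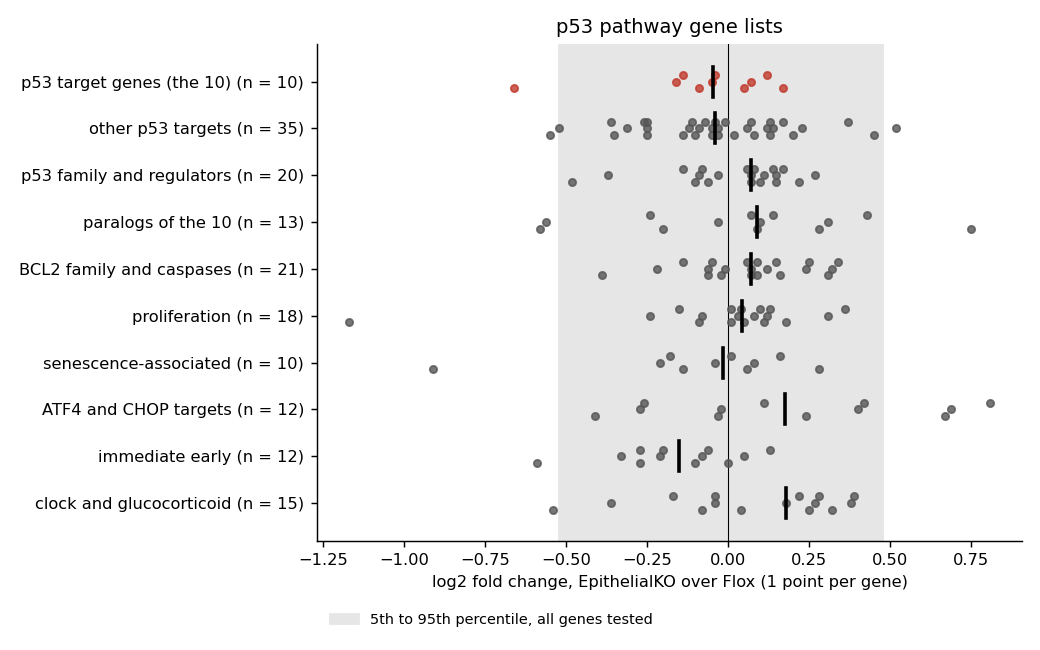
Log2 fold change of EpithelialKO over Flox for each tested gene of the p53 pathway and neighbouring lists, with 1 point per gene, a black bar at each list's median and grey from the 5th to the 95th percentile of all genes tested (-0.52 to 0.48). Of the 10 p53 target genes, Eda2r alone lies outside the grey band.

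Among genes induced by other stresses, a list of 12, made of Atf4 and targets of ATF4 and CHOP, had a median log2 fold change of 0.18. Of these, 7 were positive and 5 negative, and 0 passed the threshold. At an unadjusted edgeR p under 0.05, 5 were higher, beside 5.87% of all genes. The serine synthesis enzyme Psat1 stood at 24.7 ± 1.28 CPM in EpithelialKO and 15.5 ± 1.83 CPM in Flox (0.67 ± 0.13, SE; edgeR adjusted p = 0.0577). The groups did not overlap for 2 genes of the list, Psat1 and Asns, beside 3.12% of all genes tested. Asns had 0.69 ± 0.15, Cth 0.81 ± 0.18 and Ddit3, which encodes CHOP, 0.40 ± 0.13 (edgeR adjusted p = 0.205). The CHOP target that is also a member, Bbc3, had -0.09 ± 0.14. The 12 immediate early genes had a median of -0.15 (10 negative), with Jun at -0.33 ± 0.14, Fosb at -0.59 ± 0.33, Dusp1 at -0.21 ± 0.26 and Nr4a1 at -0.27 ± 0.36. The 15 clock and glucocorticoid-induced genes had a median of 0.18, with Nr1d1 at 0.27 ± 0.12, Hlf at -0.54 ± 0.27, Nr1d2 at 0.22 ± 0.17 and Tef at 0.28 ± 0.30. No gene of either list passed.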

How the data were processed

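Whole-lung RNA of 5 EpithelialKO and 5 Flox mice was measured by RNA-seq. Per the labels' protocols, mRNA was captured on oligo(dT) beads, and cutadapt, HISAT2 and the build GRCm38 are named, without versions, per the submitters' processing notes. The counting tool is not given in the sources used here. Values deposited by the authors are raw counts per Entrez gene, with no normalization, totalling 14983829 to 21224412 per mouse; 25275 of 27179 IDs matched a RefSeq symbol. Any pair of mice differed beyond sampling noise (chi-square at least 17.0 per degree of freedom), and none were merged. Genes were filtered with filterByExpr (minimum count 10, total 15), scaled by TMM and tested with edgeR 4.0.16 in R 4.3.3 (robust quasi-likelihood fit, group only, Benjamini-Hochberg over 15301 genes). SEs and 95% intervals come from the F statistic. limma 3.58.1, DESeq2 1.42.0, other scalings and filters, leaving out each mouse or Flox mice 4 and 6, and a threshold of 0.1 were alternatives. The fit was tested on simulated data. The members, lists and alternatives were chosen with earlier results of these data known. Text names all members, Ern1, Trp53, Mdm4 and up to 4 genes of each pathway list with the lowest p. Cell type marker lists are given by counts and summed CPM.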

Additional observations from a re-analysis of the deposited data

How the results depend on the processing

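None of the 10 p53 target genes passed the threshold under any alternative tried, including the threshold of 0.1. Eda2r had no adjusted p in DESeq2, so that alternative bears on 9 genes. Over the 170 combinations of gene and alternative fit, 159 kept the sign of the log2 fold change and 11 did not, with values from -0.05 to 0.16. Leaving out 1 mouse gave log2 fold changes from -0.34 to 0.16 for Cdkn1a, from -0.05 to 0.14 for Ccng1, from -0.15 to 0.02 for Bbc3, from -0.16 to 0.04 for Zmat3 and from -0.11 to 0.07 for Sesn1. No sign was reversed in the other 5 genes, with log2 fold changes from 0.08 to 0.25 for Bax, from 0.02 to 0.22 for Phlda3, from 0.00 to 0.09 for Mdm2, from -0.21 to -0.07 for Trp53inp1 and from -0.86 to -0.43 for Eda2r. With limma-voom the log2 fold change was 0.11 for Cdkn1a and 0.03 for Sesn1, and without Flox mice 4 and 6 it was 0.03 for Zmat3. The cause of these sign changes was not tested. The number of all genes past the threshold was 6, against 38 at a threshold of 0.1, 279 with the DESeq2 Wald test, 29 with limma-voom and 34 with no count filter. It was 0 without Flox mice 4 and 6 (1207 genes at an unadjusted p under 0.05 in edgeR). With 1 mouse left out it was 48 without Flox mouse 5 and 0 without any other single mouse. The Sesn1 level was 15.4 CPM per kilobase with the longest transcript, beside 18.3. No paired analysis was possible because the groups share no mouse numbers. Depth limits Eda2r, at 12 to 91 counts per mouse, more than the other members, which had at least 241.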
